A study of Mus musculus with 4 samples.

Results

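The 8 genes Mpo, Elane, Prtn3, Ctsg, Ms4a3, Fcnb, Gfi1 and Cebpe, known from the primary granules of early granulocytes and from the cells that make them, were followed in fetal liver with and without the RNA-binding protein hnRNP L. They were chosen by symbol. All 8 were found among the 22011 genes of the files, each with 1 RefSeq transcript, and all 8 passed the filter on low counts. The study sequenced RNA from fetal liver cells in 4 libraries, 2 from hnRNP L -/- (KO) and 2 from wild type (WT) mice, to compare gene levels between the genotypes. hnRNP L is a heterogeneous nuclear ribonucleoprotein that acts in splicing. The protocols name C57BL/6, LckCre transgenic, CD45.1 and ROSA26 tdTomato and EGFP reporter mice as the stocks kept, without saying which alleles stand behind the 4 libraries. The sources used here do not give the kind of deletion, the Cre used, the age of the fetuses or any treatment. Nothing in the labels ties libraries to litters. Numbers in the file names pair each KO with a WT library. Their meaning is not given, and the main test did not use them. The KO libraries differed in markers of sex, given below, and so were not from the same animal. The spread between the WT libraries, which the p-values also measure, may be technical.

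Granulocytes arise from myeloid progenitors that pass through a promyelocyte stage, at which primary, or azurophil, granules are filled. These granules hold myeloperoxidase, which makes hypochlorous acid, and serine proteases that are stored in active form bound to the proteoglycan serglycin. Secondary granule proteins are made later in the same lineage. Before birth the liver is where most blood is formed, with erythroid cells in the majority.

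The libraries held 97490949 and 96260423 mapped reads in KO and 70020061 and 111324295 in WT. The 8 genes had between 148 and 17457 reads in each library. Hnrnpl, the targeted gene, was at 280 and 269 counts per 1000000 reads (CPM) in KO, against 460 and 603 CPM in WT, a partial fall that passed the test (log2 fold change -0.95, SE 0.16, edgeR adjusted p = 0.0114). The labels do not say which part of the gene was deleted. The markers of fetal liver were abundant. Alb, the albumin gene of hepatocytes, had 31296 and 24904 CPM in KO and 21421 and 14945 CPM in WT. Hbb-b1, an adult beta globin gene of red cells, had 7820 and 6245 CPM in KO and 17276 and 13481 CPM in WT. The libraries also differed in markers of sex and of heart tissue. Xist, the noncoding RNA of the inactive X chromosome, had 45597 and 336 reads in KO, against 31498 and 51618 reads in WT, and Ddx3y, on the Y chromosome, 5 and 2839 reads in KO and 8 and 14 reads in WT, so KO replicate 2 stood apart in sex. Cardiac troponin T, Tnnt2, had 0.230 and 0.371 CPM in KO and 4.92 and 30.7 CPM in WT, highest in WT replicate 2. It was lower in both KO libraries, and its part in the results was not tested.

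Of the 8 genes, 4 rose in KO (Mpo, Elane, Fcnb and Gfi1) and the other 4 did not pass the edgeR test at an adjusted p of 0.05. Among all 15028 genes tested, 11.4% rose by the same rule and 9.44% fell, 20.8% in all. The median log2 fold change of the 8 genes was 0.75, against 0.02 over all genes tested. None of the 8 fell by edgeR, DESeq2 or limma voom; at an unadjusted p under 0.05, 5 were higher and 0 lower by edgeR and by limma voom, and 5 were higher and 1 lower by DESeq2. Both KO libraries lay above both WT libraries in 5 of the 8, against 33.5% of all genes, and below them in 1, against 31.7%. In these bulk samples more cells of a type and more RNA per cell cannot be told apart. With 1 library left out, log2 fold changes ran from 1.38 to 1.55 for Mpo and from 0.51 to 1.26 for Elane. They ran from 0.59 to 1.10 for Fcnb and from 0.56 to 0.95 for Gfi1. Without KO replicate 1, Prtn3 was at -0.84 and Ctsg at -0.87. Fewer genes passed over all genes as well when 1 library was left out, so lost calls were not particular to these 8.

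**Figure D1:**
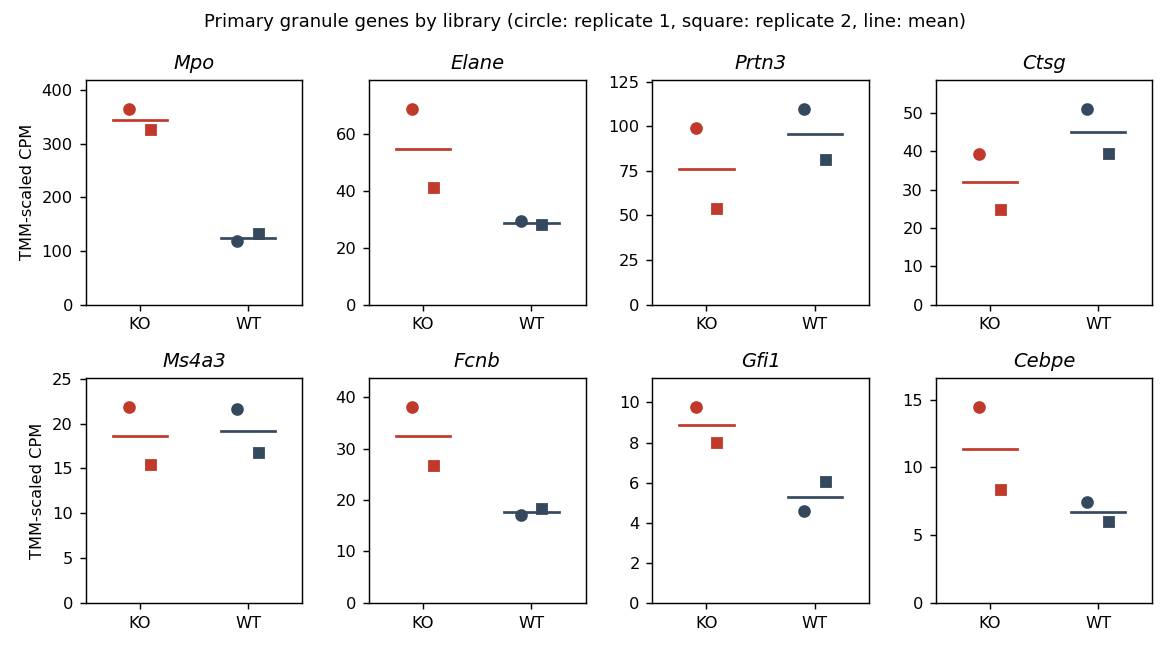
TMM-scaled CPM of each gene in each library, KO left and WT right, with circles for replicate 1, squares for replicate 2 and lines for the mean of each genotype (n = 2); each panel starts at 0 and has its own scale. Mpo is between 325 and 365 CPM in KO and between 118 and 131 CPM in WT, while Prtn3 and Ms4a3 overlap between genotypes.

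Mpo (NM_010824, chromosome 11, 87607286 to 87617914, plus strand, in the coordinates of the files, whose build the sources used here do not name) encodes myeloperoxidase. It had 365 and 325 CPM in the KO libraries, against 118 and 131 CPM in the WT libraries. The groups were far apart, and the 2 libraries of each genotype were close to each other. The difference was 2.77-fold (log2 fold change 1.47, SE 0.13, edgeR adjusted p = 0.00415), and the call was kept in all 13 alternative analyses, with log2 fold changes of 1.38 to 1.64. Reads that span its 13 known junctions, counted apart from the transcript reads, numbered 2981 and 3206 in KO and 629 and 1189 in WT. Scaled to 1000000 known junction reads, these were 417 and 462 in KO and 129 and 138 in WT, a 3.11-fold difference (edgeR adjusted p = 0.000102). By these junction reads 3 of the 8 genes rose, Mpo, Elane and Fcnb, against 6.19% of all genes.

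Of the 3 serine protease genes, 1 rose and 2 did not pass. Elane (NM_015779, chromosome 10, 79349057 to 79350961, plus strand) encodes neutrophil elastase, Prtn3 (NM_011178, chromosome 10, 79342412 to 79345917, plus strand) encodes proteinase 3, and Ctsg (NM_007800, chromosome 14, 56718718 to 56721411, minus strand) encodes cathepsin G. Prtn3 and Elane are neighbours on the same strand, with 3139 bases between them. Elane had 68.9 and 41.1 CPM in KO, against 29.3 and 28.1 CPM in WT. Both KO libraries were above both WT libraries, with KO replicate 1 well above KO replicate 2. The difference was 1.91-fold (log2 fold change 0.94, SE 0.22, edgeR adjusted p = 0.0268). The call was lost without WT replicate 1 (adjusted p = 0.0576) or WT replicate 2 (adjusted p = 0.0755), and the log2 fold change was 0.51 without KO replicate 1.

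Prtn3 had 98.9 and 53.4 CPM in KO, against 110 and 81.3 CPM in WT. Its groups overlapped, and it did not pass the test (log2 fold change -0.33, SE 0.27, edgeR adjusted p = 0.421). Its value rested on the KO library kept: leaving out KO replicate 2 gave a log2 fold change of 0.052, and leaving out KO replicate 1 one of -0.84, which passed as lower (edgeR adjusted p = 0.0311). Ctsg had 39.2 and 24.8 CPM in KO, against 51.1 and 39.3 CPM in WT. Its groups all but touched, with KO replicate 1 just below WT replicate 2. It did not pass (log2 fold change -0.50, SE 0.22, edgeR adjusted p = 0.148). It passed as lower without KO replicate 1 (log2 fold change -0.87, edgeR adjusted p = 0.0247) and with no filter on low counts (adjusted p = 0.0178). Known junction reads gave a lower Ctsg too, at 255 and 179 reads in KO and 307 and 358 reads in WT (0.565 of WT, edgeR adjusted p = 0.0452). In the same count of junction reads, Elane had 359 and 247 reads in KO and 67 and 134 reads in WT, a 2.78-fold difference (edgeR adjusted p = 0.00330).

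**Figure D2:**
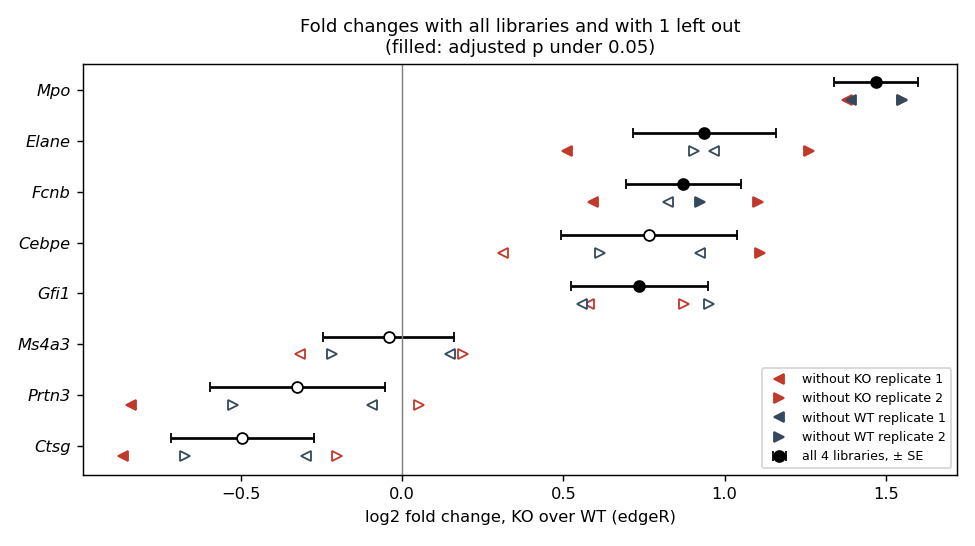
Log2 fold change, KO over WT, of each gene in the edgeR fit of all 4 libraries (black, with SE) and with 1 library left out (triangles, red for a KO and blue for a WT library); filled symbols have an adjusted p under 0.05. Mpo stays between 1.38 and 1.55 with 1 library left out, while Prtn3 runs between -0.84 and 0.052.

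The split among the 4 granule enzymes can be read within each library, where no scaling between libraries enters. Levels are given here as the authors' RPKM, reads per kilobase of transcript per 1000000 mapped reads, so that genes can be compared per length. The ratio of Elane to Prtn3 in RPKM was 0.735 and 0.811 in KO, against 0.282 and 0.365 in WT. It was 2.41 times as high in KO, and the groups did not overlap. The ratio of Mpo to Ctsg was 3.66 and 5.15 in KO, against 0.908 and 1.31 in WT, 3.98 times as high. The ratio of Mpo to Prtn3 was 1.40 and 2.32 in KO and 0.409 and 0.615 in WT, and that of Elane to Ctsg 1.91 and 1.80 in KO and 0.626 and 0.778 in WT. The remaining ratios of RPKM differed less, by 1.49 times for Mpo to Elane and by 1.11 times for Prtn3 to Ctsg. Mpo to Elane was higher in both KO libraries. For Prtn3 to Ctsg the groups all but touched, at 2.606 and 2.223 in KO and 2.219 and 2.135 in WT. Each of the 6 pairs had an exact two-sided permutation p of 0.333, the smallest that 2 libraries against 2 allow. Known junction reads gave an Elane to Prtn3 ratio of 0.950 and 1.22 in KO, against 0.179 and 0.345 in WT. In junction reads the KO and WT libraries overlapped for Mpo to Elane, where KO replicate 1 at 8.30 lay below the WT values of 9.39 and 8.87 and KO replicate 2 above them, and for Prtn3 to Ctsg, at 1.48 and 1.13 in KO and 1.22 and 1.08 in WT. The 3 proteases are related in sequence, and how far reads of one could be counted for another was not tested.

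**Figure D3:**
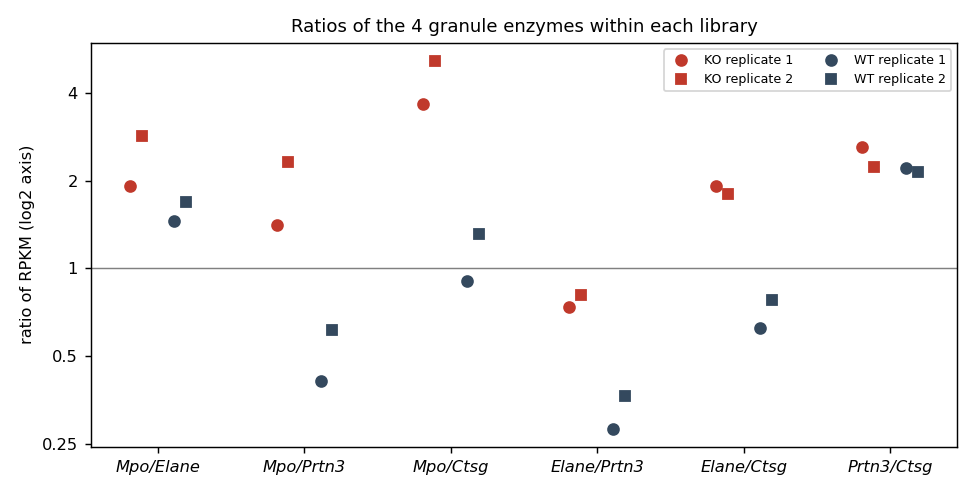
Ratio of RPKM between each pair of the 4 granule enzymes within each library, on a log2 axis, with KO in red left of WT in blue and circles and squares for replicates 1 and 2. The 4 ratios that set Mpo or Elane against Prtn3 or Ctsg are higher in both KO libraries, by 2.41 to 3.98 times.

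By these levels the order of the genes was not the same in the 2 genotypes. In KO, Mpo was highest at 69.1 ± 1.69 RPKM, followed by Prtn3 at 39.7 ± 14.7 and Elane at 30.3 ± 9.19 RPKM (SD, n = 2). The ranges of the last pair overlapped between libraries. Within each KO library Prtn3 was above Elane, at 50.1 and 36.8 RPKM in replicate 1 and 29.3 and 23.8 RPKM in replicate 2. In WT, Prtn3 was highest at 47.0 ± 7.33 RPKM, followed by Mpo at 23.5 ± 3.08 and Ctsg at 21.6 ± 2.78 RPKM, again an overlapping pair, and then Elane at 15.0 ± 0.371 RPKM (SD, n = 2). Ctsg in KO, at 16.2 ± 4.25 RPKM, overlapped with Fcnb at 15.5 ± 2.95 RPKM (SD, n = 2). The regulators were lowest in both genotypes, Cebpe at 4.65 ± 1.51 RPKM in KO and 2.59 ± 0.249 RPKM in WT, and Gfi1 at 1.58 ± 0.134 RPKM in KO and 0.893 ± 0.219 RPKM in WT (SD, n = 2). Among all tested genes, 97.2% had a lower mean RPKM than Mpo in KO and 88.9% in WT.

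The upstream sequences of the 4 enzymes are shown because the genes are expressed in the same cell stage and because Elane passed the test where its neighbour Prtn3 did not. In cell and reporter studies, the proximal Elane promoter is known to bind C/EBP, PU.1 and MYB. The lines give the 250 bases before the annotated start, 5′ to 3′ on the gene's strand, from RefSeq on GRCm38.p6. Capitals mark GAGGAA (a PU.1 core), AACNG (a MYB core) and GCAAT (part of a C/EBP site), each on either strand; no 2 matches overlap in these 4 sequences. The motifs were chosen with these sequences in view.
Mpo (chr11:87793534-87793783, plus strand): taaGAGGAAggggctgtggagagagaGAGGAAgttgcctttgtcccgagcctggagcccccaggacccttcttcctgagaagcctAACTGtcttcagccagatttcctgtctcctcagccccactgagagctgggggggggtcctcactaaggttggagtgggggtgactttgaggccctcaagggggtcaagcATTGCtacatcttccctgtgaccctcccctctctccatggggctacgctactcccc
Elane (chr10:79886062-79886311, plus strand): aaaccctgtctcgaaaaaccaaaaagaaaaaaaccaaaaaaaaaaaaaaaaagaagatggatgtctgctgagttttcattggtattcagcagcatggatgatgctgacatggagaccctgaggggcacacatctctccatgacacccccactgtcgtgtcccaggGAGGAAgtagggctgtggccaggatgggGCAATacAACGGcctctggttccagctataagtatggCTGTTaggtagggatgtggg
Prtn3 (chr10:79879417-79879666, plus strand): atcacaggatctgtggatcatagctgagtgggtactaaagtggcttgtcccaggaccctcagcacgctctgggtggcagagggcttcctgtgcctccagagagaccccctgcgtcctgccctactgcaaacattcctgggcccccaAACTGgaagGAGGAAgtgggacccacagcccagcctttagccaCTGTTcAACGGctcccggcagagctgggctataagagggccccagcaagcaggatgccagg
Ctsg (chr14:56102575-56102824, minus strand): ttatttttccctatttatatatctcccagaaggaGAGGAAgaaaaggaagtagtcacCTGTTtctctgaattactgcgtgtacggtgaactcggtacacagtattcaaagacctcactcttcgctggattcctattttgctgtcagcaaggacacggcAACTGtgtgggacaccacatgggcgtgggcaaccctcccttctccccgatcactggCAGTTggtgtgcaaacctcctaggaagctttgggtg

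All 4 sequences held a GAGGAA match, 2 in Mpo and 1 in each of the others, beginning 85 bases before the start in Elane and 95 bases before it in Prtn3. Over all 32851 such upstream sequences, 23.3% held GAGGAA on either strand, 74.2% AACNG and 23.1% GCAAT. Elane and Prtn3 each held AACGG, 50 bases before the start in Elane and 55 in Prtn3. The letters GCAAT were found in Elane, 57 bases before the start, and on the other strand in Mpo, 56 bases before it. They were not in these windows of Prtn3 and Ctsg. Mpo and Elane held all 3 motifs, as did 4.09% of all upstream sequences. Because the motifs were chosen with these sequences in view, this share tests nothing. Of the 8 genes, 7 had an annotated upstream sequence. The windows of Fcnb and Gfi1, which rose, and of Ms4a3, which did not pass, held no GAGGAA and no GCAAT. These matches describe letters and not binding.

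Of the genes that are no granule enzymes, Fcnb (NM_010190, chromosome 2, 27931999 to 27940398, minus strand) encodes ficolin B, a lectin of complement activation made by myeloid cells. It had 38.0 and 26.7 CPM in KO, against 17.1 and 18.2 CPM in WT, with both KO libraries above both WT libraries. It rose 1.83-fold (log2 fold change 0.87, SE 0.18, edgeR adjusted p = 0.0182), a call lost without WT replicate 1 (adjusted p = 0.0576). Known junction reads of Fcnb numbered 367 and 247 in KO and 69 and 187 in WT. Ms4a3 (NM_133246, chromosome 19, 11703987 to 11715324, minus strand) encodes a membrane-spanning protein of granulocyte and monocyte progenitors. It had 21.8 and 15.4 CPM in KO, against 21.6 and 16.8 CPM in WT. Replicates of 1 genotype differed more than the genotypes did (log2 fold change -0.04, SE 0.20, edgeR adjusted p = 0.902).

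Gfi1 and Cebpe encode transcription factors of granulocyte maturation and not granule proteins. Gfi1 (NM_010278, chromosome 5, 108145674 to 108153363, minus strand), a repressor needed for neutrophil formation, had 9.75 and 7.98 CPM in KO, against 4.58 and 6.01 CPM in WT. It rose 1.67-fold by a small margin (log2 fold change 0.74, SE 0.21, edgeR adjusted p = 0.0461), and the call was lost whichever library was left out (adjusted p of 0.0563 to 0.165). Cebpe (NM_207131, chromosome 14, 55329200 to 55331011, minus strand), C/EBP epsilon, is needed for secondary granules. It had 14.4 and 8.33 CPM in KO, against 7.43 and 5.99 CPM in WT, and KO replicate 1 stood well above the other libraries. It did not pass by edgeR (log2 fold change 0.77, SE 0.27, adjusted p = 0.0839), but passed without KO replicate 2 (log2 fold change 1.11, adjusted p = 0.0354) and by DESeq2 (adjusted p = 0.0377). Without KO replicate 1 its log2 fold change was 0.31.

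KO replicate 1 had the higher level of the KO libraries in 8 of the 8 genes, with a median log2 difference of 0.58 over KO replicate 2. Over all tested genes it was higher in 50.4%, with a median difference of 0.00. Between the WT libraries, replicate 1 was higher in 5 of the 8 (median log2 difference 0.19). KO replicate 2 is also the library that stood apart in Xist, and the part of sex in this difference was not tested.

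Splicing of the 8 genes was compared through reads on their 45 known junctions, of which 42 in 7 genes could be tested. Cebpe has a single known junction, with 28 and 15 reads in KO and 2 and 8 reads in WT. Usage sets the reads on a junction against those on the rest of the gene's junctions. By edgeR's test of usage, 0 of the 42 passed, and 1 had an unadjusted p under 0.05. Over all 103333 junctions tested, 0.00194% passed and 2.38% had an unadjusted p under 0.05. The 1 junction was the third of Ms4a3, with 4 and 5 reads in KO and 13 and 24 reads in WT (log2 usage -1.96, unadjusted p = 0.0350, edgeR adjusted p = 1.00). The rise of Mpo was spread along the gene: relative to all known junction reads, 12 of its 13 junctions were higher in both KO libraries than in either WT library, and the exception was the second, with 13 and 17 reads in KO and 12 and 2 reads in WT.

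A list of 20 genes that act with the primary granule proteins included 4 that rose of 18 tested. Over all genes tested, 11.4% rose. The list's median log2 fold change was 0.25. Named here are 3 lysosomal hydrolases, found in many cell types: Man2b1, an alpha-mannosidase (2.77-fold, edgeR adjusted p = 0.00411), Gaa, acid alpha-glucosidase (1.94-fold), and Arsb, an arylsulfatase (1.46-fold). The count was 2 without KO replicate 1 or WT replicate 1. The call of Arsb was lost without KO replicate 1, KO replicate 2 or WT replicate 1 (edgeR adjusted p of 0.0528 to 0.122). Genes closer to the proteases did not pass. Ctsc, the peptidase that activates them, had 60.0 and 42.5 CPM in KO and 91.8 and 62.7 CPM in WT (edgeR adjusted p = 0.0897); it passed as lower without KO replicate 1 (0.0433) or WT replicate 2 (0.0414). Prss57, a further granule protease, had 14.1 and 8.21 CPM in KO and 7.31 and 7.24 CPM in WT (edgeR adjusted p = 0.125), and passed as higher without KO replicate 2 (0.0375). Srgn, serglycin, had 91.0 and 66.6 CPM in KO and 66.5 and 64.6 CPM in WT (edgeR adjusted p = 0.248). Ctsc, Prss57 and Srgn were chosen after their values were seen.

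Of 19 tested transcription factors of the granulocyte lineage, 5 rose and 14 did not pass (median log2 fold change 0.14). The share that rose over all genes tested was 11.4%. Cebpa, C/EBP alpha, which acts at the entry to the lineage, had 80.5 and 73.6 CPM in KO and 48.2 and 37.2 CPM in WT (1.81-fold, edgeR adjusted p = 0.0112), a call kept whichever library was left out. Ets1 rose 1.65-fold, Egr1 1.96-fold and Cbfb, the partner of RUNX factors, 1.55-fold; the fifth was Id2, outside the rule for named genes. Calls were lost without KO replicate 2 or WT replicate 2 for Egr1 (edgeR adjusted p = 0.0811 and 0.0643), and for Cbfb in those cases and without WT replicate 1 (0.0775 to 0.129). The count was 3 without KO replicate 2 or WT replicate 1 and 2 without WT replicate 2. Sfpi1, which encodes PU.1, was at 25.1 and 19.3 CPM in KO and 26.8 and 20.1 CPM in WT (edgeR adjusted p = 0.799), and Myb at 147 and 139 CPM in KO and 133 and 142 CPM in WT (edgeR adjusted p = 0.721). These last were taken up after their values were seen, as the factors whose motifs are marked above.

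Of 23 receptors and adhesion genes, 7 rose and 2 fell (median log2 fold change 0.16), beside 11.4% and 9.44% of all genes tested. Itgb2, the integrin beta chain of leukocytes, rose 2.74-fold (edgeR adjusted p = 0.00446), Csf2rb2 2.21-fold and Itgal 1.48-fold, and the cytokine receptor gene Flt3 fell to 0.396 of WT. The call of Itgal was lost without KO replicate 1, WT replicate 1 or WT replicate 2 (edgeR adjusted p of 0.0557 to 0.0704). The rises numbered 2 without KO replicate 1 or WT replicate 2 and 3 without WT replicate 1, and the falls 1 without KO replicate 2 or WT replicate 1. Csf3r, the receptor of the granulocyte growth factor G-CSF, chosen after its values were seen, had 18.2 and 17.3 CPM in KO and 11.5 and 7.67 CPM in WT (1.86-fold, edgeR adjusted p = 0.0256). Its call was lost without KO replicate 1, KO replicate 2 or WT replicate 2 (0.0600 to 0.104).

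Genes of the granules made later in the lineage were followed as well. Of 22 genes of secondary and tertiary granules, 9 rose and 13 did not pass, with a median log2 fold change of 0.68. Among all genes tested, 11.4% rose. Ltf, lactoferrin, had 39.1 and 43.0 CPM in KO and 12.7 and 15.3 CPM in WT (2.93-fold, edgeR adjusted p = 0.00446). Olfm4 rose 1.94-fold, Ngp 1.92-fold and Mmp9, gelatinase B, 4.97-fold, and these 4 calls were kept whichever library was left out. The count was 5 without WT replicate 2. Whether these genes and the 8 primary granule genes differ as groups was not tested.

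**Figure D4:**
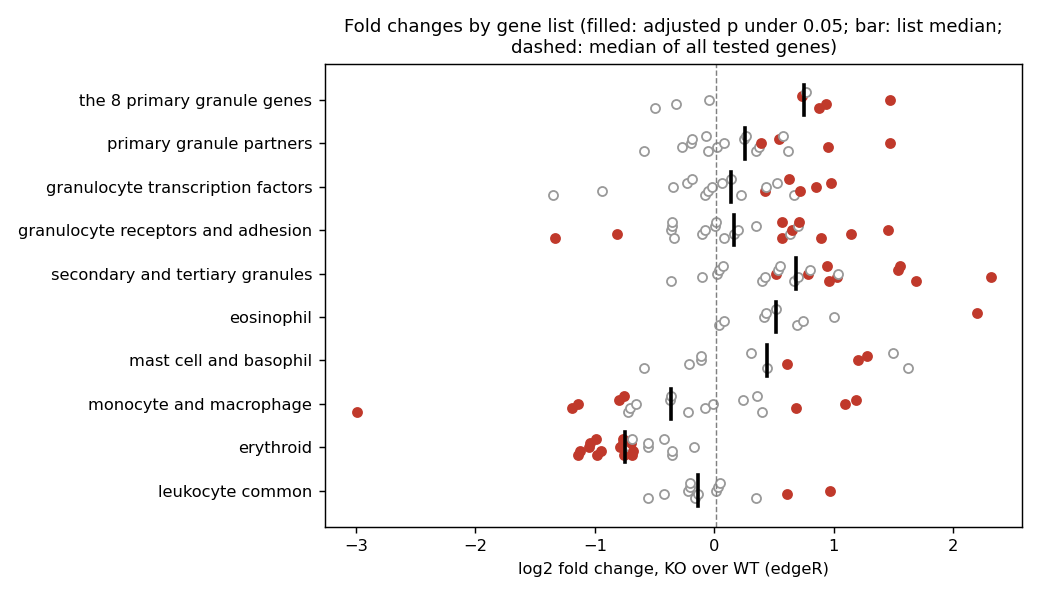
Log2 fold change, KO over WT, of each tested gene of the 8 primary granule genes and of 9 lists (filled red circles: edgeR adjusted p under 0.05), with a black bar at each median and a dashed line at the median of all tested genes, 0.02. The 8 genes and the later granule genes have medians of 0.75 and 0.68, and the erythroid genes one of -0.74.

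Markers of other cell types were followed too, and their part in the levels of the 8 genes was not tested. Over all genes tested, 11.4% rose and 9.44% fell. The counts of rises among leukocyte and eosinophil markers below are near that share and are no result about those lists. Erythroid markers were lower: of 23 tested, 15 fell (median log2 fold change -0.74). Their summed level was 42992 and 32065 CPM in KO and 73443 and 64965 CPM in WT. In it Hba-a1 and Hba-a2 had the same reads, 120743 and 59386 in KO and 86933 and 150859 in WT, which were thus counted repeatedly. Hbb-b1 and Hbb-b2, which both fell, overlap in coordinates, and how far their reads were shared was not tested. The 23 are therefore not all distinct markers. Spna1, erythroid spectrin, fell to 0.484 of WT, the water channel gene Aqp1 to 0.502 and the membrane protein gene Rhag to 0.577. The count was 4 without KO replicate 2 and 6 without WT replicate 1 or WT replicate 2, and Rhag did not pass in these 3 cases (edgeR adjusted p of 0.0570 to 0.0611). Of 13 markers common to leukocytes, 2 rose, Laptm5 (1.96-fold) and Fermt3 (1.53-fold), and the median was -0.14. Plek and Cd48 did not pass. The summed level of these 13 was 1401 and 1267 CPM in KO and 1273 and 1149 CPM in WT. Without KO replicate 2 or WT replicate 1, Fermt3 did not pass (edgeR adjusted p = 0.0513 and 0.0845). Of 9 eosinophil markers (median log2 fold change 0.52), 1 rose, the peroxidase gene Epx (4.58-fold, edgeR adjusted p = 0.00446), and 3 rose without KO replicate 2. The ribonuclease genes Ear1, Ear6 and Ear2 did not pass with all 4 libraries in the edgeR fit, and Ear6 passed without KO replicate 2 (edgeR adjusted p = 0.0370). The summed level of the 9 was 329 and 235 CPM in KO and 162 and 190 CPM in WT. Of 11 tested mast cell and basophil markers (median 0.44), 3 rose, Gata2 (2.42-fold), Hdc (2.31-fold) and Il1rl1 (1.52-fold, a call lost without KO replicate 2 or WT replicate 2, edgeR adjusted p = 0.0546 and 0.0878). Cpa3, a mast cell carboxypeptidase, did not pass. Mitf, Fcer1a, Cma1 and Tpsb2 had log2 fold changes of -0.11, -0.12, -0.21 and -0.59, the last 3 at few reads. Those of Mcpt8, Prss34 and Ms4a2 were positive, and none of these genes passed. The summed level of the 13 listed was 172 and 138 CPM in KO and 94.4 and 81.5 CPM in WT. Hdc and Il1rl1 were its largest parts, at 57.8 and 57.0 CPM in KO replicate 1 and 21.0 and 40.1 CPM in WT replicate 1.

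Of 19 tested markers of monocytes and macrophages, 3 rose and 5 fell (median log2 fold change -0.36), beside 11.4% and 9.44% of all genes. Their summed level was 711 and 580 CPM in KO and 847 and 651 CPM in WT. Emr1, which encodes F4/80, was at 0.438 of its WT level and the Kupffer cell lectin gene Clec4f at 0.125. Mertk rose 1.61-fold and Siglec1 2.28-fold. Mertk did not pass without KO replicate 2, WT replicate 1 or WT replicate 2 (edgeR adjusted p of 0.0511 to 0.0962), nor Siglec1 without WT replicate 2 (0.0700). The other 4 were Cd68, which rose, and Ly86, F13a1 and Ccr2, which fell, named after their values were seen. The rises numbered 1 without KO replicate 2 and 0 without WT replicate 2, where 6 fell. The falls numbered 2 without KO replicate 2 or WT replicate 1. None of the listed markers of these 5 types that the files hold was without reads in all 4 libraries.

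The genomic neighbours of the 8 genes, the 3 nearest on each side in the files' coordinates, were compared as well. Of 42 such neighbours, 28 could be tested, of which 4 rose and 2 fell, beside 11.4% and 9.44% of all genes tested. These counts are near those shares and are no result about the neighbours. Epx, the third gene beyond Mpo and 59585 bases from it, rose with it: it had 74.5 and 62.7 CPM in KO and 11.3 and 18.4 CPM in WT. Lpo, the lactoperoxidase gene next to Mpo, had 0 and 0 CPM in KO and 0.0310 and 0.0900 CPM in WT. Ptbp1, which encodes a splicing repressor and lies 15233 bases from Prtn3, rose 1.55-fold (edgeR adjusted p = 0.0190). Its call was lost without KO replicate 2, WT replicate 1 or WT replicate 2 (0.0684 to 0.0804). Homez and Slc7a8, beside Cebpe, were the other rises, and Supt4h1, beside Mpo, and Rpl5, beside Gfi1, were the falls. Each of these 4 calls was lost without at least 3 of the libraries (edgeR adjusted p up to 0.218).

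The genes most like the mean pattern of the 8 over the 4 libraries, by Euclidean distance of centred log2 CPM among 11184 candidates, were Camp, B2m, Tymp, Snora34 and Ceacam1. Camp, which encodes the secondary granule peptide cathelicidin, was nearest at 0.0807, against a median distance of 0.718. It had 47.5 and 31.0 CPM in KO and 30.3 and 28.2 CPM in WT, high in KO replicate 1 only, and did not pass the test (edgeR adjusted p = 0.158); without KO replicate 2 it did (0.0379). The 8 genes themselves lay at 0.325, for Cebpe, to 1.06, for Mpo, from their own mean, so that this mean describes none of them closely. With 4 libraries many genes can share a pattern.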

How the data were processed

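Deposited per library were a table of RefSeq transcripts and a table of splice junctions. Per the file headers, the authors took raw counts of reads per transcript from primary alignments (mapping quality minimum 10, score minimum 0, score clear zone 5). The authors' tables also hold RPKM and reads per nucleotide, a coverage signal. Dividing the counts by length and depth gave both again in 100% of rows; RPKM served for levels per length and no test used either. Junction tables hold raw counts of reads on 186874 known and 1734753 putative junctions. The sources used here do not give the aligner, the build or the use of strand. Fragmented, rRNA-depleted RNA was amplified by PCR without molecular identifiers, per the labels' protocols.

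Of 28283 rows, 1 per gene was kept, that with most reads over the 4 libraries, giving 22011 genes. Reads on these rows numbered 33738843 to 56895360 per library. Tests on gene counts were those of edgeR 4.0.16 (R 4.3.3; quasi-likelihood, TMM, filterByExpr), with p-values adjusted by Benjamini-Hochberg over 15028 genes and called at 0.05. Standard errors are the log2 fold change over the square root of F. Junction usage was tested with diffSpliceDGE on known junctions with at least 10 reads. DESeq2 1.42.0, limma 3.58.1, other scalings, no filter, summed rows, junction reads, a block and leaving out each library were alternatives. Fits were tested on simulated data. The 8 genes, the lists and the promoter motifs were chosen with earlier results of these data known. Named were the 8 genes, Hnrnpl, the 4 genes with the smallest p of each list with a call and the 5 nearest patterns; others are marked as chosen after their values were seen. Of the listed symbols, 1 (Ahsp) matched no gene in the files. Some genes that the rule for named genes covers are not reported here.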

Additional observations from a re-analysis of the deposited data

Results flagged for a closer look

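Reads on an unannotated junction stood out in Prtn3. The junction joins the start of the first known junction to the end of the second, which leaves out the exon between them, and it had 15 and 2 reads in KO replicates 1 and 2, against 3 and 4 reads in WT replicates 1 and 2. The highest value was in KO replicate 1 alone, and the groups overlapped. The first known junction of Prtn3 had 83 and 70 reads in KO and 42 and 127 reads in WT, and the second 27 and 15 reads in KO and 18 and 35 reads in WT. Putative junctions were not part of any test. With 2 libraries per genotype, no library could be tested as lying far from its group.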

How the results depend on the processing

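Mpo passed as higher in all 13 alternatives, Fcnb in 12, Elane in 11, Gfi1 in 6 and Cebpe in 5; Ctsg passed as lower in 4, Prtn3 in 1 and Ms4a3 in 0. The cause of these differences was not tested. The number of the 8 genes that rose was 3 to 5 in the alternatives that keep all libraries and 1 to 4 with 1 library left out. The number that fell was 1 with known junction reads, 1 with no filter on low counts and 0 to 2 with 1 library left out. Over all genes, 3130 passed, 1191 with known junction reads (11247 genes tested) and 1022 to 2492 with 1 library left out. With library totals in place of TMM, 2380 rose and 952 fell, against 1711 and 1419, and the median log2 fold change of all genes moved to 0.11; Ms4a3 then had 0.049. With 1 library left out, log2 fold changes that changed sign ran between -0.32 and 0.19 for Ms4a3, positive without WT replicate 1 (0.15) or KO replicate 2, between -0.84 and 0.052 for Prtn3, positive without KO replicate 2, and between -0.33 and 0.076 for the leukocyte median, positive without WT replicate 1 (0.052) or KO replicate 2. Junction usage of the 8 genes gave 0 calls in the 6 alternatives run.

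Each KO library shares a number in its file name with 1 WT library, and the meaning of this number is not given. Deviations of such libraries from their group means correlated at 0.136 across genes. With this number as a replicate block, 4341 genes passed, 5 of the 8 genes rose, with Cebpe added (adjusted p = 0.0210), and 1, Ctsg, fell (adjusted p = 0.0138), and junction usage gave 0 calls. Depth limits Cebpe and Gfi1 in the count of junction reads, at 2 to 28 and 12 to 52 reads per library.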

Other observations

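Granzyme genes beside Ctsg, taken up after their values were seen, had reads almost only in KO replicate 1. Gzmd had 119 and 1 reads in KO and 1 and 0 reads in WT, Gzmg 98 and 0 reads in KO and 1 and 0 reads in WT, and Gzme 38 and 0 reads in KO and 3 and 2 reads in WT. These genes encode serine proteases of killer lymphocytes and are close copies of each other, so that reads could be shared among them; their levels did not pass the filter on low counts. Mcpt8, the basophil protease gene on the other side of Ctsg, had 15.2 and 3.98 CPM in KO and 4.98 and 1.44 CPM in WT, with the highest level again in KO replicate 1 (edgeR adjusted p = 0.132).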
